A study of Mus musculus with 20 samples.

Results

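The G1 cyclins, cyclin-dependent kinases (CDKs) and E2F factors were followed as 10 genes in mouse liver tumors and liver. They were chosen by name, with earlier results of these data known. The set holds the D-type cyclins Ccnd1, Ccnd2 and Ccnd3 and the E-type cyclins Ccne1 and Ccne2. It also holds the kinases Cdk2, Cdk4 and Cdk6 and the transcription factors E2f1 and E2f8. The count tables list 50559 gene symbols, of which 14333 passed a filter on low counts, and 10 of 10 genes of the set passed it. The series holds 20 RNA sequencing libraries, 5 each from Aldafermin+MYC, FGF19+MYC and sgTrp53+MYC tumors and from liver. All animals were female wild-type C57BL/6J mice. Mice were young when injected, and the age at which each sample was taken is not given in the sources used here. The study reports that mice with Aldafermin+MYC or FGF19+MYC were examined within weeks of injection. It states no such time for the sgTrp53+MYC group. Tumors were raised by hydrodynamic gene transfer, in which plasmids injected into the tail vein enter hepatocytes. The plasmids were given together with the Sleeping Beauty transposase, and their integration was not measured here. All 15 tumors carried human MYC under the EF1a promoter. The first tumor group also received Aldafermin, an engineered analog of the gut hormone FGF19, the second received human FGF19 itself, and the third received a CRISPR plasmid with a guide against Trp53, the gene of p53. The Aldafermin and FGF19 groups are together called hormone tumors (10 libraries). All tumor groups share MYC, and no group with MYC alone was sequenced among these libraries. The liver samples are labelled as non treated, whereas the methods describe control livers that received a plasmid for a red fluorescent protein. Each tumor library came from 1 individual tumor, and tumors were taken from independent mice.

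Passage from G1 into S phase is driven by cyclins that bind and switch on CDKs. D-type cyclins, which respond to growth signals, act with Cdk4 and Cdk6, and E-type cyclins act with Cdk2. Both kinds of complex phosphorylate the retinoblastoma protein, which releases E2F factors to transcribe genes of DNA replication, E-type cyclins among them. E2f1 is an activator of this program, and E2f8 is an atypical family member that represses it. Most hepatocytes of an adult liver are quiescent, and MYC is a long known inducer of cell cycle genes, Cdk4 among them.

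Promoters are shown for 4 genes that stand for the patterns described here: Cdk4 and Cdk6, whose products bind D-type cyclins and whose transcripts rose in all tumor groups, and Cdk2 and Ccne1, whose products act together but whose transcripts moved unequally. RefSeq promoter sequences on the GRCm38.p6 build, from 250 bases before to 50 bases after the transcription start, were at hand for 7 of the 10 genes, in 8 entries. Capitals mark matches to the E-box CACGTG, the letters that MYC with its partner MAX is known to bind, or to an E2F motif (TTTCCCGC, TTTGGCGC, TTTCGCGC or TTTGCCGC). Both were searched on both strands, and the matches did not overlap each other. Sequences run 5′ to 3′ along the gene.
Cdk4, chr10:127063285-127063584, plus strand: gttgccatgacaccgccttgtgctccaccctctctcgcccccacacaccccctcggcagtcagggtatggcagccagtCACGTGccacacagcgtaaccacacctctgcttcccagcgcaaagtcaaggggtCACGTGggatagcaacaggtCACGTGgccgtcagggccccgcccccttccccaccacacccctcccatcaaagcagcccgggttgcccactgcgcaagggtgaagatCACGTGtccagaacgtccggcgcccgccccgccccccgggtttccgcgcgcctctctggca
Cdk6, chr5:3343643-3343942, plus strand: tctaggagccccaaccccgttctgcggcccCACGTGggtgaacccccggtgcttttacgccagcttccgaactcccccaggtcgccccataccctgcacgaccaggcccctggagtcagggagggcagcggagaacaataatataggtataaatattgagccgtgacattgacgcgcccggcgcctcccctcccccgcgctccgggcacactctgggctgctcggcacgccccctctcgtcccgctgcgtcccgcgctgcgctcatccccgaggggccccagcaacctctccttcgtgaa
Cdk2, chr10:128705002-128705301, minus strand: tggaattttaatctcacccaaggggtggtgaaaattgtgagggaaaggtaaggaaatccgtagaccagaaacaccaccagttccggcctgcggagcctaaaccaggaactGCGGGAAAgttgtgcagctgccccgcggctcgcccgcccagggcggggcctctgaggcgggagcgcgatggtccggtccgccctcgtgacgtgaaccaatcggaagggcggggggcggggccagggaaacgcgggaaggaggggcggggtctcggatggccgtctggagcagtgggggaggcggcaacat
Ccne1, chr7:38107441-38107740, minus strand: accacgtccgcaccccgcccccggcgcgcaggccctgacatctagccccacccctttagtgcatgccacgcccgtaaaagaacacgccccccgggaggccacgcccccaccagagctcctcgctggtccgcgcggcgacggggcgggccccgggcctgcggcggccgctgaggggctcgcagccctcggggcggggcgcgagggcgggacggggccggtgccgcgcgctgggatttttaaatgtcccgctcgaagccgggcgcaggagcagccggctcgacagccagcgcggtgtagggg
The Cdk4 window held 4 E-boxes, which begin at -172, -118, -98 and -11 relative to the start. The Cdk6 window held 1 E-box at -220 and the Cdk2 window 1 E2F motif at -140, read on the opposite strand. The printed Ccne1 window held neither set of letters, and no match was found in the entries of Ccnd3 and E2f8. The E2f1 entry held no match either, but whether it covers the start that E2f1 transcripts use was not checked. A window without a match does not show that the promoter of the gene lacks these letters. Of all 32851 promoters of this length, 7.15% held an E-box and 2.26% held one of the E2F motifs. A match is a description of the letters only, and binding was not measured here.

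Reads counted on genes ranged from 18004977 to 44427184 per library in the table with the hormone tumors and livers, and from 54042455 to 66354724 in the separate table of the sgTrp53+MYC tumors. The share of reads falling on more than one gene also differed between the tables, at 3.0 to 6.3% and 11.1 to 14.6%, so a comparison with sgTrp53+MYC tumors is also one between tables, and group and table cannot be told apart. Levels are given as CPM, a gene's counts relative to the size of its library after TMM scaling, in the order of replicates 1 to 5. Differences are log2 fold changes with standard errors (SE) from edgeR's quasi-likelihood test, with p-values adjusted by the Benjamini-Hochberg method over all 14333 genes and a threshold of 0.05. The targeted gene Trp53 was at 18.7 to 79.8 CPM in the sgTrp53+MYC tumors, at 90.7 to 176 CPM in the FGF19+MYC and Aldafermin+MYC tumors and at 28.8 to 36.3 CPM in liver. A transcript level does not show whether a guide has edited the gene. Among the sgTrp53+MYC tumors, replicate 2 stood apart in markers of bile duct cells (Krt19, Krt7, Epcam, Sox9 and Spp1), whose summed level was 777 CPM there and 3.44 to 41.1 CPM in the other 4. Counts called in the gene and marker lists are given with and without that library where they changed.

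Tumors and liver were compared first, to see which G1 genes differ between MYC-driven tumors and the organ they arose in. Against liver, the mean of the 2 hormone groups was higher for 8 of the 10 genes and lower for 1, at a background of 39.2% of all genes higher and 34.5% lower. In sgTrp53+MYC tumors 7 were higher and 1 lower, at a background of 36.9% and 33%. The gene that fell in both was Ccnd1, and Ccnd2 was called in neither. Both comparisons use the same 5 livers. In 7 of 10 genes, every hormone tumor was above every liver, which held for 28.5% of all genes, and in 7 genes every sgTrp53+MYC tumor was above every liver, which held for 28.8%. In such bulk samples, fewer cells of a type and less RNA per cell cannot be told apart, and the summed level of 6 hepatocyte markers was 178769 to 224317 CPM in liver, 8053 to 28072 CPM in hormone tumors and 3283 to 10666 CPM in sgTrp53+MYC tumors, with each of the 6 lower in both kinds of tumor. Endothelial markers summed to 220 to 356 CPM in liver and to 51.8 to 177 CPM in the 15 tumors, with no overlap, and 3 of 6 were lower in hormone and 4 of 6 in sgTrp53+MYC tumors. The latter count was 3 of 6 without sgTrp53+MYC replicate 2. Macrophage markers summed to 250 to 372 CPM in liver, and of 5 there were 1 higher and 2 lower in hormone tumors and 1 higher and 4 lower in sgTrp53+MYC tumors. Of 5 bile duct markers 3 were lower in hormone tumors and 1 higher in sgTrp53+MYC tumors, whereas without sgTrp53+MYC replicate 2 the latter count was 0 higher and 2 lower of 4 tested. The part of these markers in the differences was not tested.

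**Figure D1:**
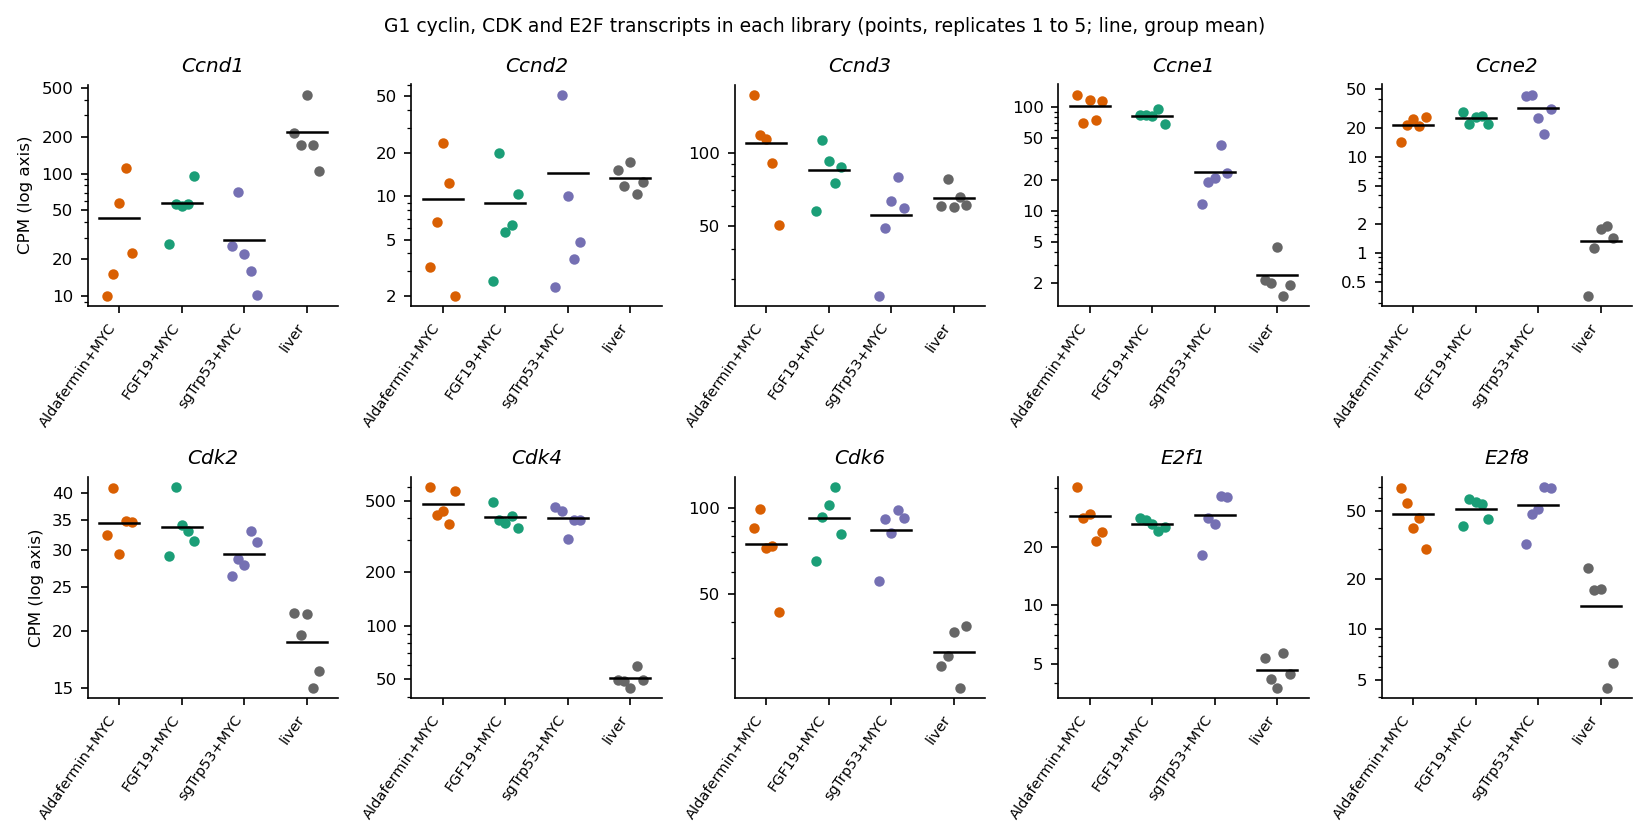
CPM (log axis, scaled separately in each panel) of the 10 genes in the 5 libraries of each group, with points in the order of replicates 1 to 5 and a line at the group mean. For Ccne1, Ccne2, Cdk2, Cdk4, Cdk6, E2f1 and E2f8 every tumor lies above every liver, and for Ccne1 the sgTrp53+MYC tumors lie between liver and the hormone tumors.

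Cyclin E1, encoded by Ccne1 (Chr 7: 37797404 to 37808264, GRCm39, minus strand), was the gene of the set with the largest rise in hormone tumors and the one that separated them from sgTrp53+MYC tumors. Ccne1 was at 133, 70.7, 117, 75.9 and 115 CPM in Aldafermin+MYC tumors. The FGF19+MYC tumors had 83.6, 84.4, 82.7, 95.8 and 69.4 CPM. In sgTrp53+MYC tumors it was at 11.5, 18.96, 20.9, 43.6 and 23.3 CPM and in liver at 2.15, 2.01, 4.45, 1.5 and 1.91 CPM. The 3 levels did not overlap: the lowest hormone tumor was above the highest sgTrp53+MYC tumor, and the lowest sgTrp53+MYC tumor was above the highest liver. Hormone tumors exceeded liver by 5.25 (SE 0.35, edgeR adjusted p = 8.09e-11) and sgTrp53+MYC tumors by 3.29 (SE 0.33, edgeR adjusted p = 4.71e-08), which are 38.0-fold and 9.75-fold. The difference between the 2 kinds of tumor was 1.96 (SE 0.28, 95% interval 1.37 to 2.55, edgeR adjusted p = 9.9e-05), or 3.90-fold. Each hormone group showed it on its own, by 2.11 for Aldafermin+MYC (edgeR adjusted p = 0.000205) and 1.81 for FGF19+MYC (edgeR adjusted p = 0.000657), where 10.2% and 7.97% of all genes were higher.

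Cyclin E2, encoded by Ccne2 (Chr 4: 11190303 to 11204947, plus strand), binds the same kinase. Its level was 14.2, 21.2, 24.7, 20.6 and 25.6 CPM in Aldafermin+MYC tumors and 29.1, 22.0, 26.1, 26.7 and 21.9 CPM in FGF19+MYC tumors. The sgTrp53+MYC tumors had 42.6, 44.1, 25.1, 17.2 and 31.6 CPM. Liver had 0.36, 1.13, 1.76, 1.91 and 1.43 CPM, which rest on 5 to 40 reads per library. All tumors were above all livers, by 4.12 in hormone tumors (SE 0.32, edgeR adjusted p = 6.2e-10) and 4.59 in sgTrp53+MYC tumors (SE 0.34, edgeR adjusted p = 4.74e-10), and the tumor groups overlapped. Between hormone and sgTrp53+MYC tumors the difference of -0.47 (SE 0.24, 95% interval -0.97 to 0.02) was not called (edgeR adjusted p = 0.161). Exons of the protein-coding gene Ints8 on the opposite strand cover 15.2% of Ccne2 exon length.

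Both E-type cyclins thus differed from liver in all tumors, but in unequal proportion. The log2 ratio of Ccne1 to Ccne2 CPM was 3.22, 1.74, 2.24, 1.88 and 2.17 in Aldafermin+MYC tumors and 1.52, 1.94, 1.67, 1.84 and 1.67 in FGF19+MYC tumors. In sgTrp53+MYC tumors it was -1.89, -1.22, -0.26, 1.34 and -0.44, with the highest ratio in replicate 4. The hormone tumors did not overlap the sgTrp53+MYC tumors in this ratio, which was chosen after the values were seen and is given with no test. Per kilobase of exon, on which genes can be compared, Ccne1 made up 81.6 to 93.5% of E-type cyclin transcript in the hormone tumors and 54.9 to 90.3% in liver. With the Trp53 guide it made up 29.5, 40.01, 56.4, 79.7 and 53.3%, so Ccne1 was the larger in 3 of 5. Per longest transcript these shares were 40.4, 51.9, 67.6, 86.4 and 64.9%, with Ccne1 the larger in 4 of 5. The sum of both per kilobase was 23.0 to 39.2 CPM in hormone tumors, 10.2 to 15.1 CPM in sgTrp53+MYC tumors and 0.656 to 1.54 CPM in liver, with no overlap between these 3.

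**Figure D2:**
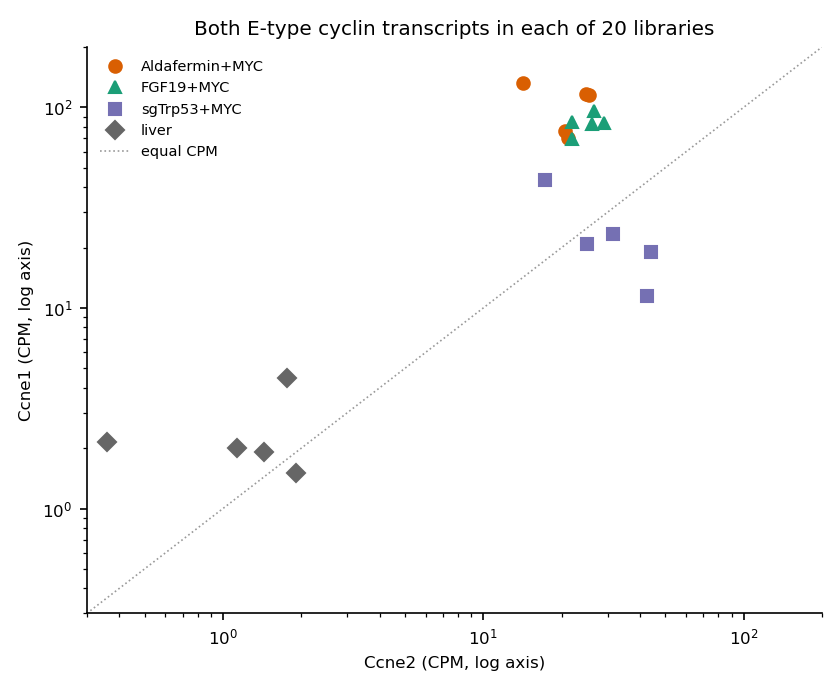
Ccne1 against Ccne2 in each of 20 libraries (CPM, both axes log), with groups by shape and color and a dotted line where both have equal CPM, which is not equal level per kilobase. The 10 hormone tumors, at ratios of 1.52 to 3.22 on the log2 scale, lie farther above the line than any sgTrp53+MYC tumor, and the livers lie at the lower left.

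The D-type cyclins went separate ways. Ccnd1 (Chr 7: 144483668 to 144493662, minus strand), which couples growth factor signals to Cdk4 and Cdk6, had its highest levels in liver, at 213, 170, 442, 172 and 104 CPM. It was at 10.02, 15.1, 58.0, 111 and 22.3 CPM in Aldafermin+MYC tumors. The FGF19+MYC tumors had 26.6, 56.5, 54.4, 56.4 and 95.6 CPM, and the sgTrp53+MYC tumors 25.8, 70.6, 21.9, 16.2 and 10.2 CPM. The sgTrp53+MYC tumors were all below liver, which held for 27.4% of all genes, whereas among hormone tumors 1 library, Aldafermin+MYC replicate 4, was above the lowest liver. The difference from liver was -2.14 in hormone tumors (SE 0.49, edgeR adjusted p = 0.000672) and -2.93 in sgTrp53+MYC tumors (SE 0.64, edgeR adjusted p = 0.000436). Between the tumors the difference of 0.79 (SE 0.53, 95% interval -0.32 to 1.90) was not called (edgeR adjusted p = 0.302). The spread was wide, with 11.04-fold between the lowest and highest Aldafermin+MYC tumor. In sgTrp53+MYC tumors the library with the most Ccnd1 was replicate 2, the one with the high bile duct markers. Their part in its Ccnd1 level was not tested. Without sgTrp53+MYC replicate 2 the Ccnd1 difference from liver was -3.57 and that between the tumors 1.43 (edgeR adjusted p = 0.0702). Over all fits that left out 1 library, the Ccnd1 difference between the tumors ran from 0.44, without Aldafermin+MYC replicate 4 (edgeR adjusted p = 0.545), to 1.43, and none called it. On the opposite strand, exons of another protein-coding gene (LTO1) cover 48.4% of the exon length of Ccnd1. Whether counting used the strand is not given in the sources used here.

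Ccnd2 (Chr 6: 127102125 to 127129156, minus strand) had the lowest mean of the 3 D-type cyclins per kilobase in each group and differed 25.6-fold between the lowest and highest of the 15 tumors, or 11.8-fold without sgTrp53+MYC replicate 2, which is close to the 11.04-fold of Ccnd1 and 11.5-fold of Ccne1 in those 14. It was at 3.23, 6.61, 23.8, 12.5 and 2.02 CPM in Aldafermin+MYC tumors and at 2.56, 20.03, 5.65, 6.27 and 10.46 CPM in FGF19+MYC tumors. With the Trp53 guide it was at 2.32, 51.6, 10.1, 3.64 and 4.83 CPM and in liver at 15.3, 11.8, 17.5, 10.4 and 12.5 CPM. All groups overlapped, and sgTrp53+MYC replicate 2 had the highest level of the 20. No comparison called Ccnd2. The difference between hormone and sgTrp53+MYC tumors was -0.64 (SE 0.64, edgeR adjusted p = 0.503) with all libraries and 0.83 without that replicate (edgeR adjusted p = 0.325).

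Ccnd3 (Chr 17: 47815767 to 47910624, plus strand) was the D-type cyclin that was higher in hormone tumors. It was at 173, 118, 113, 91.0 and 50.1 CPM in Aldafermin+MYC tumors and at 57.4, 113, 91.9, 74.6 and 86.8 CPM in FGF19+MYC tumors. The sgTrp53+MYC tumors had 25.7, 48.8, 63.2, 79.2 and 59.3 CPM and the livers 60.4, 77.6, 59.7, 65.6 and 60.5 CPM. The groups overlapped, with 2 hormone tumors below the lowest liver. Hormone tumors exceeded sgTrp53+MYC tumors by 0.80 (SE 0.25, 95% interval 0.27 to 1.33, edgeR adjusted p = 0.0266) and liver by 0.57 (SE 0.25, edgeR adjusted p = 0.0458), while sgTrp53+MYC tumors against liver gave -0.23 (SE 0.28, edgeR adjusted p = 0.478). Both calls were near the threshold. The tables also list a Ccnd3 pseudogene, Ccnd3-ps, to which the counting could have split reads. The first was lost without sgTrp53+MYC replicate 1 (edgeR adjusted p = 0.0582) or 2 (edgeR adjusted p = 0.0607) and for FGF19+MYC tumors alone (0.62, edgeR adjusted p = 0.142), and the second in 10 of 15 fits that left out 1 library.

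As a family, D-type cyclin transcript per kilobase of exon summed to 29.7 to 100.8 CPM in liver, 10.3 to 34.3 CPM in hormone tumors and 8.41 to 25.5 CPM in sgTrp53+MYC tumors. In liver, Ccnd1 was 73.5 to 91.7% of the sum and Ccnd3 6.41 to 22.0%. In tumors the make-up differed from one library to the next. Ccnd1 was 9.89 to 67.4% in Aldafermin+MYC, 45.2 to 65.6% in FGF19+MYC and 23.6 to 64.0% in sgTrp53+MYC tumors, and Ccnd3 was 28.7 to 88.5%, 30.8 to 51.5% and 20.7 to 70.8%. In each of the 15 tumors the Ccnd1 share was below that of each liver, also per longest transcript and with no division by length. Which member was the larger in FGF19+MYC tumors turned with the length used: the median shares of Ccnd1 and Ccnd3 were 51.9 and 45.4% per kilobase of exon but 36.3 and 61.4% per longest transcript. Ccnd2 reached 21.5% in sgTrp53+MYC replicate 2 and was 1.62 to 9.38% in the other 14 tumors.

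**Figure D3:**
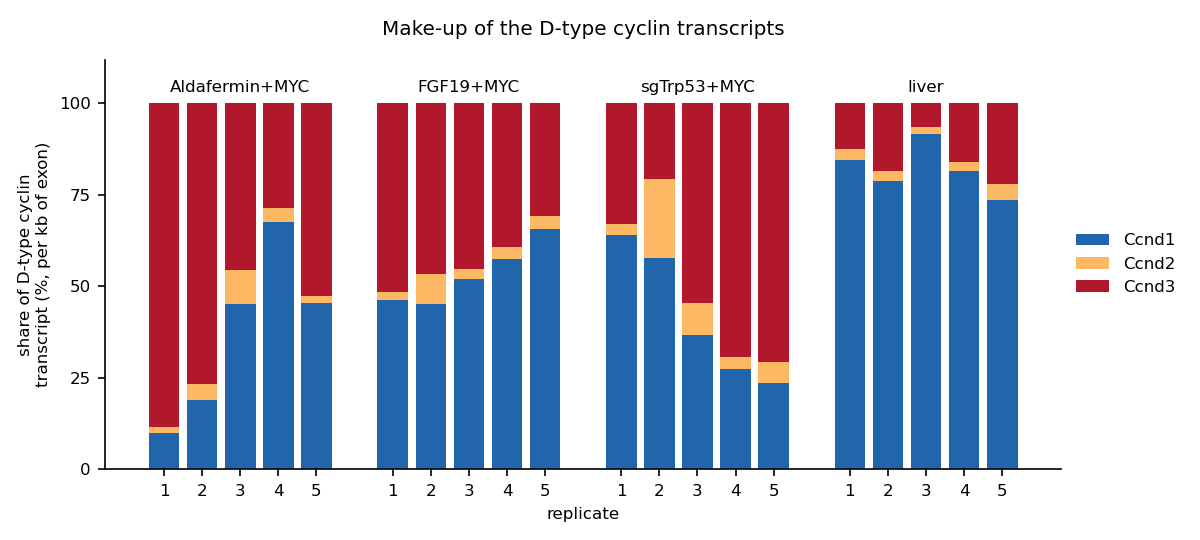
Share of Ccnd1, Ccnd2 and Ccnd3 in the summed D-type cyclin transcript of each library (percent, CPM per kilobase of exon), with replicates 1 to 5 of each group side by side. Ccnd1 makes up 73.5 to 91.7% of each liver bar and a smaller part of each tumor bar, where Ccnd3 takes 20.7 to 88.5%.

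Among the kinases, Cdk4 (Chr 10: 126895180 to 126903789, plus strand), the main partner of D-type cyclins, had the highest level per kilobase of the 10 genes in every tumor group. It was at 598, 417, 437, 371 and 566 CPM in Aldafermin+MYC tumors and at 493, 388, 377, 411 and 353 CPM in FGF19+MYC tumors. Tumors with the Trp53 guide had 462, 440, 306, 392 and 389 CPM, and livers had 49.7, 49.1, 44.6, 59.7 and 49.7 CPM. The tumor groups overlapped one another, and every tumor was above every liver. The rise was 3.12 in hormone tumors (SE 0.16, edgeR adjusted p = 2.27e-12) and 2.98 in sgTrp53+MYC tumors (SE 0.17, edgeR adjusted p = 1.27e-11), or 8.70-fold and 7.87-fold. Between these tumors the difference was 0.14 (SE 0.13, 95% interval -0.14 to 0.43, edgeR adjusted p = 0.47). Exons of the protein-coding gene Tspan31 on the opposite strand cover 18.8% of Cdk4 exon length.

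Cdk6 (Chr 5: 3391485 to 3581008, plus strand), the other kinase of D-type cyclins, was at 85.1, 98.8, 72.4, 73.7 and 43.5 CPM in Aldafermin+MYC tumors and at 65.2, 92.7, 102, 118 and 81.0 CPM in FGF19+MYC tumors. It was at 55.7, 91.3, 81.5, 98.3 and 92.4 CPM in sgTrp53+MYC tumors and at 28.1, 30.6, 37.0, 23.6 and 38.7 CPM in liver. Each tumor was above each liver, by 1.39 in hormone tumors (SE 0.19, edgeR adjusted p = 2.66e-06) and 1.41 in sgTrp53+MYC tumors (SE 0.21, edgeR adjusted p = 9.28e-06). The tumors differed by -0.02 (SE 0.18, 95% interval -0.40 to 0.36, edgeR adjusted p = 0.958). Per kilobase, Cdk4 made up 93.6 to 98.2% of the sum of both kinases in tumors and 83.5 to 91.4% in liver.

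Cdk2 (Chr 10: 128533796 to 128540963, minus strand), the partner of E-type cyclins, had the smallest rise of the called genes other than Ccnd3. It was at 32.4, 41.0, 29.5, 34.8 and 34.7 CPM in Aldafermin+MYC and 29.2, 41.3, 34.1, 33.1 and 31.5 CPM in FGF19+MYC tumors. The sgTrp53+MYC tumors had 26.4, 28.7, 27.8, 33.1 and 31.2 CPM and the livers 21.9, 19.6, 21.8, 15 and 16.4 CPM. All tumors were above all livers, by 0.85 in hormone tumors (SE 0.12, edgeR adjusted p = 2.55e-06) and 0.64 in sgTrp53+MYC tumors (SE 0.13, edgeR adjusted p = 0.000278). The difference between tumors of 0.21 (SE 0.11, 95% interval -0.03 to 0.45) was not called (edgeR adjusted p = 0.188).

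E2f1 (Chr 2: 154401326 to 154411812, minus strand) was at 40.5, 27.96, 29.6, 21.5 and 23.7 CPM in Aldafermin+MYC tumors and at 28.2, 27.3, 26.0, 24.0 and 25.3 CPM in FGF19+MYC tumors. For sgTrp53+MYC tumors the level was 18.1, 27.9, 26.2, 36.5 and 36.1 CPM, and for liver 5.37, 4.17, 3.75, 5.66 and 4.42 CPM. Tumors of the 3 groups had like means and lay apart from liver. The rise was 2.56 in hormone tumors (SE 0.19, edgeR adjusted p = 4.05e-10) and 2.64 in sgTrp53+MYC tumors (SE 0.20, edgeR adjusted p = 9.99e-10), and the 2 differed by -0.08 (SE 0.16, 95% interval -0.42 to 0.26, edgeR adjusted p = 0.756).

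E2f8 (Chr 7: 48516176 to 48531452, minus strand), the repressor, rose as well. Its level was 68.8, 55.9, 39.6, 45.4 and 30.1 CPM in Aldafermin+MYC tumors and 41.0, 59.0, 56.8, 55.5 and 45.1 CPM in FGF19+MYC tumors. In sgTrp53+MYC tumors it was at 32, 48.3, 51.9, 69.7 and 68.9 CPM and in liver at 23.2, 17.1, 17.2, 4.50 and 6.33 CPM. The livers varied by 5.16-fold, with replicates 4 and 5 well below the other 3, and no tumor was as low as any liver. A long noncoding gene on the opposite strand, Gm2788, covers 20.2% of its exon length. Hormone tumors exceeded liver by 1.86 (SE 0.33, edgeR adjusted p = 3.87e-05) and sgTrp53+MYC tumors did by 1.99 (SE 0.35, edgeR adjusted p = 5.79e-05). They differed from each other by -0.12 (SE 0.29, 95% interval -0.74 to 0.49, edgeR adjusted p = 0.796).

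**Figure D4:**
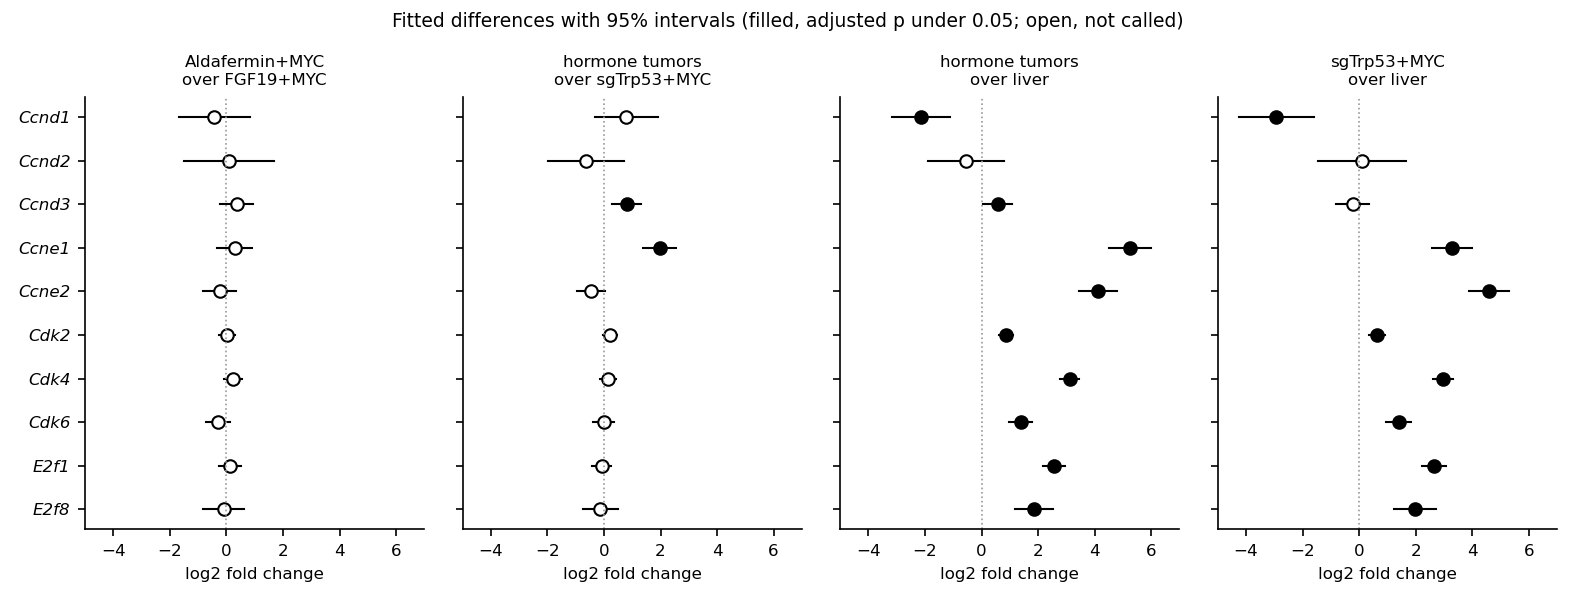
Fitted log2 fold changes of the 10 genes with 95% intervals in 4 comparisons, filled where the edgeR adjusted p was under 0.05. Intervals of Cdk2, Cdk4, Cdk6 and E2f1 are narrow and those of Ccnd1 and Ccnd2 wide, and between hormone and sgTrp53+MYC tumors Ccnd3 at 0.80 and Ccne1 at 1.96 are the filled points.

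Hormone tumors and sgTrp53+MYC tumors were set against each other to ask whether p53 targeting and the hormones leave the same G1 profile beside MYC. Of the 10 genes, 2 were higher in hormone tumors (Ccne1 and Ccnd3) and 0 lower, at a background of 11.6% of all genes higher and 12.1% lower. The groups did not overlap for 1 gene, Ccne1, which held in this direction for 3.28% of all genes. The median log2 fold change of the 10 was 0.06 and that of all genes tested -0.02. Several marker lists moved with this comparison. Of 5 macrophage markers 4 were higher in hormone tumors, with sums of 82.7 to 303 CPM there and 55.3 to 100 CPM in sgTrp53+MYC tumors. This count of higher macrophage markers was 3 of 5 without sgTrp53+MYC replicate 2. Of 5 bile duct markers 4 were lower, with sums of 1.81 to 87.4 CPM and 3.44 to 777 CPM. Without sgTrp53+MYC replicate 2 none of the 4 still tested was called in edgeR's test, 1 had an unadjusted p under 0.05, and the sums of the other 4 tumors lay within those of the hormone tumors. Of 6 hepatocyte markers 3 were higher and 1 lower, or 2 higher and 1 lower without sgTrp53+MYC replicate 2. Lymphocyte markers summed to at most 6.59 CPM in any library. No endothelial marker and no stellate cell or fibroblast marker was called of 6 each. Their part in the Ccne1 and Ccnd3 differences was not tested.

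Aldafermin+MYC and FGF19+MYC tumors were compared because Aldafermin was designed to lack the tumor-promoting activity of FGF19. None of the 10 genes passed edgeR's test, at a background of 0% of the 14333 genes, and of all genes 1048 had an unadjusted p under 0.05. With DESeq2, 96 genes were called and with edgeR's likelihood ratio test 59, with 0 of the 10 genes in either. For all 10 genes the libraries of these 2 groups overlapped, and 1.46% of all genes did not. The widest intervals were those of Ccnd1 (difference -0.43, 95% interval -1.67 to 0.82) and Ccnd2 (0.09, -1.49 to 1.67). The narrowest was that of Cdk2 (0.03, -0.25 to 0.30). For Ccne1 the difference was 0.30 with an interval of -0.32 to 0.92, and for Ccne2 it was -0.24 with an interval of -0.83 to 0.35. Leaving out 1 library gave -1.13 to -0.17 for Ccnd1, with -1.13 without Aldafermin+MYC replicate 4 (edgeR adjusted p = 0.553), and none of these fits called it.

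Other genes of the same pathway were read from 5 lists. The factors that work beside the set were 8 other E2F and DP genes, of which 7 rose and 0 fell in hormone tumors against liver and 8 rose in sgTrp53+MYC tumors, where 39.2% and 36.9% of all genes rose. Between the tumors 2 were lower in hormone tumors and 0 higher, beside 12.1% and 11.6% of all genes. E2f7, an atypical repressor like E2f8, was at 2.33 to 3.46 CPM in Aldafermin+MYC, 2.73 to 7.49 CPM in FGF19+MYC and 4.31 to 10.2 CPM in sgTrp53+MYC tumors, a difference of -0.99 (SE 0.26, edgeR adjusted p = 0.0109). Tfdp2, a dimer partner of E2F proteins, differed by -0.65 (SE 0.20, edgeR adjusted p = 0.0262). Aldafermin+MYC tumors alone gave -1.47 for E2f7 (edgeR adjusted p = 0.00403) and -0.75 for Tfdp2 (edgeR adjusted p = 0.0366). For FGF19+MYC tumors alone neither was called, with E2f7 at -0.50 (edgeR adjusted p = 0.295) and Tfdp2 at -0.54 (edgeR adjusted p = 0.129).

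The list of CDK inhibitors and the retinoblastoma family had more called genes between the tumors than the other 4 lists. Of its 8 tested genes 1 was higher and 4 lower in hormone tumors than in sgTrp53+MYC tumors, beside 11.6% and 12.1% of all genes. Against liver 3 rose and 3 fell in hormone tumors, beside 39.2% and 34.5%. Cdkn1a, which encodes the p53-inducible inhibitor p21, was at 47.2 to 138 CPM in Aldafermin+MYC, 104 to 164 CPM in FGF19+MYC and 18.7 to 32.7 CPM in sgTrp53+MYC tumors, and at 1.15 to 16.6 CPM in liver. The tumor groups with and without the Trp53 guide did not overlap, and the difference was 2.29 (SE 0.44, edgeR adjusted p = 0.00108). The 4 lower genes were Cdkn2c, an inhibitor of Cdk4 and Cdk6 (-1.01, SE 0.18, edgeR adjusted p = 0.000635), Rbl2 (-0.86, SE 0.15, edgeR adjusted p = 0.000466), Rbl1 (-0.62, edgeR adjusted p = 0.0121) and Rb1 (-0.55, edgeR adjusted p = 0.024), which encode the 3 pocket proteins that hold E2F factors. For Aldafermin+MYC tumors alone Rbl1 (edgeR adjusted p = 0.123) and Rb1 (edgeR adjusted p = 0.166) were not called, and for FGF19+MYC tumors alone both were (edgeR adjusted p = 0.0116 and 0.0245). Cdkn2c was at 7.08 to 21.8 CPM in hormone tumors and 29.3 to 37.5 CPM in sgTrp53+MYC tumors, with no overlap. Cdkn2a, which did not pass the filter on low counts and was looked at after its values were seen, was at 80.8 CPM in sgTrp53+MYC replicate 2 and at most 0.79 CPM in the other 4 tumors of that group.

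Downstream, of 20 S phase genes that E2F factors are known to regulate, 19 rose in hormone tumors and 20 in sgTrp53+MYC tumors against liver, with medians of 3.68 and 3.71, and among all genes 39.2% and 36.9% rose. Between the tumors 2 of 20 were lower in hormone tumors and 0 higher, beside 12.1% and 11.6% of all genes. Without sgTrp53+MYC replicate 2 these counts were 3 lower and 0 higher, beside 10.6% and 10.4% of all genes. With all libraries the smallest adjusted p was that of Pola1, a subunit of DNA polymerase alpha (-0.83, SE 0.16, edgeR adjusted p = 0.00087). All 10 genes of G2 and M phase rose in both kinds of tumor against liver, with medians of 6.34 and 6.37, and 0 were called between the tumors, where Top2a and Bub1 had the smallest adjusted p-values (-0.49, edgeR adjusted p = 0.225, and -0.29, edgeR adjusted p = 0.261). Of 10 activators and degradation factors of the G1 kinases, 7 rose and 1 fell in hormone tumors against liver, beside 39.2% and 34.5% of all genes, and 0 were called between the tumors. Cdc25b, a phosphatase that activates CDKs, and Ccnh, the cyclin of the CDK-activating kinase, came nearest (-0.73, edgeR adjusted p = 0.0661, and -0.39, edgeR adjusted p = 0.113).

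**Figure D5:**
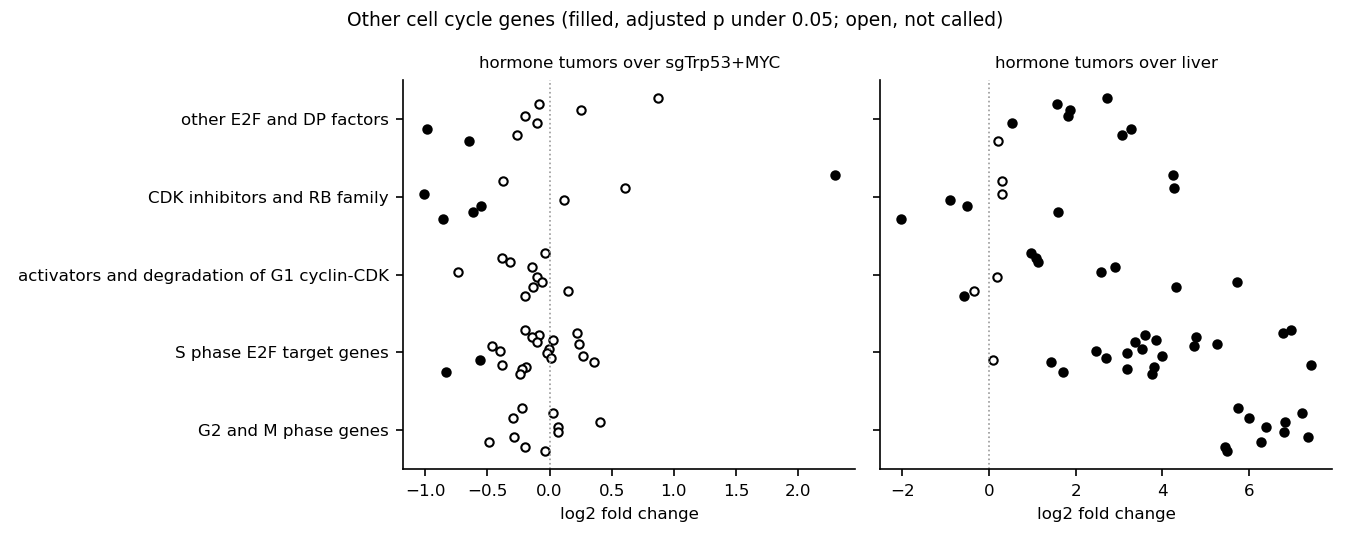
Log2 fold changes of the tested genes of 5 cell cycle lists between hormone and sgTrp53+MYC tumors (left) and between hormone tumors and liver (right, on a different axis range), filled where the edgeR adjusted p was under 0.05. On the left the filled point at 2.29 is Cdkn1a and the other filled points lie below 0, and on the right all S phase genes but 1 and all G2 and M phase genes are filled and above 0.

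The order of the group means summarises how far neighbours can be told apart. For Ccne1 the order was Aldafermin+MYC, FGF19+MYC, sgTrp53+MYC and liver, where the first pair did not differ beyond its spread (edgeR adjusted p = 0.943) and each later step did. For Ccne2, Cdk2, Cdk4, Cdk6, E2f1 and E2f8 the step to liver was called and no step between tumor groups was. For Ccnd1 liver stood above FGF19+MYC tumors (edgeR adjusted p = 0.00901), and the remaining steps were not called. Among all genes, 38.4% were higher in Aldafermin+MYC tumors than in liver, and 36.9% were higher and 32.9% lower in FGF19+MYC tumors. For Ccnd2 and Ccnd3 no step between neighbouring groups was called.

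Likeness across the 20 libraries, as Pearson's r of log2 CPM, describes which tested genes had the nearest pattern to each gene. All libraries and their split into tumors and livers are shared by both axes, so r is high for many genes and no p is given. For Ccne1 these were Golm1 (0.98), Mogat2 (0.98) and Pgap3 (0.98), and for Ccne2 Ffar4 (0.98), Pbk (0.98) and Cenpi (0.98). Ccnd1 was nearest to Dock1 (0.94), Vwf (0.93) and Id3 (0.93). Ccnd2 lay nearest to Hk1 (0.93), Oas3 (0.93) and Sting1 (0.92), and Ccnd3 to Ap1b1 (0.94), Elovl1 (0.91) and Lrrc14 (0.91). Among the kinases, Cdk4 was nearest to Slc25a4 (0.996), Ddx39a (0.995) and Jpt1 (0.994), Cdk6 to Utp20 (0.97), Bms1 (0.97) and Usp36 (0.97), and Cdk2 to BC085271 (0.95), Gm8652 (0.94) and Lins1 (0.93). E2f1 was nearest to Rnf126 (0.99), Kdm1a (0.99) and Mcm7 (0.99), and E2f8 to Gm33046 (0.95), Trp53bp1 (0.95) and Bicc1 (0.94).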

How the data were processed

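RNA of 20 samples was sequenced as stranded mRNA libraries with paired reads. The authors aligned them with HISAT2 to the mm39 build and counted reads per RefSeq gene with htseq-count, and the deposited values are raw counts per gene symbol in 2 tables. Whether counting used the strand is not given in the sources used here. All sample columns were used (0 left out), with groups and replicate numbers from the sample titles.

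Summary lines were removed, genes were kept where 5 or more libraries reached 1 CPM, and one edgeR 4.0.16 quasi-likelihood model with TMM scaling was fitted to the 4 groups in R 4.3.3. The 10 genes and all lists were chosen with earlier results of these data known. Named genes were the 10, the 2 genes of each list with the smallest adjusted p between hormone and sgTrp53+MYC tumors, further genes of the inhibitor list needed to read them, and the 3 nearest patterns, except 1 gene that is not reported here. Tumors came from independent mice.

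Alternatives were DESeq2 1.42.0, a likelihood ratio test, other scalings and filters, GC content and exon length offsets, the compared groups or 1 hormone group alone, a replicate block and leaving out each library. The gene list and marker counts without sgTrp53+MYC replicate 2 and the CPM scale of Dixon's gap test were chosen after the data were seen. Coordinates of genes are from GENCODE M39. On simulated data for hormone against sgTrp53+MYC tumors over 14333 genes, 44 of 100 genes changed by a log2 of 1 and 88 of 100 changed by 2 were found, with 5 false calls. No library was a copy of another in its own group (chi-square over degrees of freedom of at least 15.7), and pairs from different groups were not checked.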

Additional observations from a re-analysis of the deposited data

Results flagged for a closer look

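The difference from liver was not the same in hormone and sgTrp53+MYC tumors for 2 of the 10 genes, by edgeR's test of the difference itself, beside 11.6% of all genes higher and 12.1% lower in hormone tumors. For Ccne1 it was larger in hormone tumors by 1.96 on the log2 scale (edgeR adjusted p = 9.9e-05), with 10 of 10 hormone tumors above all sgTrp53+MYC tumors. For Ccnd3 the difference was 0.80 (edgeR adjusted p = 0.0266), with overlap between the groups. For Ccnd3 that call was lost without sgTrp53+MYC replicate 1 or 2.

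In 40 groups of 5 libraries, 10 genes in 4 groups, the gap of the highest or lowest library to the others was set against Dixon's critical value, which chance would pass in 2. On the CPM scale 3 values passed, of which those of Ccnd1 and Ccnd2 came from the same library. Replicate 2 of the sgTrp53+MYC tumors was the highest at 70.6 CPM for Ccnd1 and at 51.6 CPM for Ccnd2, and it was also the library with the high bile duct markers. In liver, replicate 3 was the highest for Ccne1 at 4.45 CPM. On the log2 scale 0 groups passed.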

How the results depend on the processing

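The calls of Ccne1, Ccne2, Cdk2, Cdk4, Cdk6, E2f1, E2f8 and Ccnd1 against liver, and of Ccne1 between hormone and sgTrp53+MYC tumors, were kept under all alternatives run. The Ccne1 difference between the tumors was 1.72 to 2.11 over 12 alternative settings and 1.79 to 2.30 with 1 library left out. The count of higher members there was 2, and 1 with library size scaling only, with no filter on low counts, with only the compared groups in the model and for FGF19+MYC tumors alone, and 1 to 2 with 1 library left out, since Ccnd3 lost its call (edgeR adjusted p = 0.0549, 0.0621, 0.0515 and 0.142 in those 4). Against liver Ccnd3 lost its call with DESeq2 (adjusted p = 0.055), RLE size factors (edgeR adjusted p = 0.0669), FGF19+MYC tumors alone (edgeR adjusted p = 0.226) and the replicate block (0.57, edgeR adjusted p = 0.0657), which left 7 of the 10 genes higher in place of 8. The block changed no other call. Same numbers did not pair the samples: the deviations of 30 same-numbered pairs correlated at -0.33 to 0.33 (median -0.02), and 1 of 20 libraries correlated best with its own number. The causes were not tested.

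Directions turned only for differences that were not called. Between Aldafermin+MYC and FGF19+MYC tumors Cdk2 was at -0.0044 (DESeq2), -0.0037 (RLE size factors) and -0.0078 (only the compared groups), and with 1 library left out Cdk2 ranged from -0.043 to 0.11, Ccnd2 from -0.57 to 0.62, E2f1 from -0.026 to 0.22 and E2f8 from -0.27 to 0.013. Between hormone and sgTrp53+MYC tumors, GC content and exon length offsets gave -0.0083 for Cdk4 and 0.11 for Cdk6, Cdk6 was at 0.13 for FGF19+MYC tumors alone, and with 1 library left out Cdk6 ranged from -0.14 to 0.046, E2f1 from -0.21 to 0.014 and Ccnd2 from -0.97 to 0.83. Against liver, Ccnd2 was at 0.34 in hormone tumors with library size scaling only, at -0.82 in sgTrp53+MYC tumors with the replicate block, and from -1.36 to 0.38 there with 1 library left out. Ccnd3 in sgTrp53+MYC tumors was at 0.68 with library size scaling only and 0.055 with no filter on low counts. Library size scaling only moved the median log2 fold change of all genes against liver from 0.10 and 0.07 to 0.94 and 0.95, in hormone and sgTrp53+MYC tumors, and the share of higher calls from 53.2% and 52.8% to 76.9% and 77.9%. The fall of Ccnd1 was then -1.29 and -2.08. Per longest transcript, the Ccnd3 share in liver was 11.7 to 35.1% in place of 6.41 to 22.0%, and in FGF19+MYC tumors the medians of Ccnd1 and Ccnd3 were 36.3 and 61.4% in place of 51.9 and 45.4%. With no division by length those medians were 35.8 and 59.6%.

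Depth limits the liver values of Ccne2, at 5 to 40 reads, and 5 tumors a group limit what can be found for Ccnd1 and Ccnd2, whose levels varied by up to 22.2-fold within a group.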
